A study of Homo sapiens with 9 samples.

Results

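Expression of 36 genes of glycolysis and of the response to low oxygen was examined in human bronchial epithelial cells of the BEAS-2B line after exposure to condensed e-cigarette aerosol. The members were the rows of the raw count table whose identifiers carry the 36 listed gene symbols, and they were kept if at least 10 counts were present in at least 3 of 9 libraries. All 36 passed that filter, as did 16030 of the 63187 genes in the table. Of the members, 22 act in glycolysis and 14 belong to the hypoxia response. BEAS-2B cells were derived from human bronchial epithelium and immortalized, so every group comes from a single line, grown in DMEM with fetal bovine serum. Control cells were untreated. The PG/VG group received, at 2% (v/v) over 24 h, aerosol condensate from the carrier liquid alone, which is a mixture of propylene glycol and vegetable glycerol. The EC group received, at the same dilution and for the same 24 h, condensate from an e-cigarette liquid with 18 mg/mL nicotine and Virginia tobacco flavor. Each group had 3 RNA-seq libraries, numbered 2, 3 and 4 in the labels as replicate and as batch, so that each batch held 1 control, 1 PG/VG and 1 EC library.

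Glycolysis splits glucose into pyruvate. Glucose transporters bring the sugar in, hexokinases trap it, a chain of cytosolic enzymes converts it, and lactate dehydrogenase or the mitochondrion takes the pyruvate. The hypoxia response is driven by hypoxia-inducible factor, whose alpha subunit is marked for destruction by prolyl hydroxylases (EGLN1, EGLN3) while oxygen is present. When the subunit is stable, the factor binds a short element in DNA and raises transcription of many glycolytic genes and of genes for blood vessel growth, mitophagy, pH control and collagen hydroxylation, so these groups of genes are often read together in epithelial cells.

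The libraries held 16168260 to 24917838 counts on genes, and the 36 members took 1.21% to 1.57% of them. Of the simple-epithelial keratins, KRT19 was at 16.7 to 23.2 CPM and KRT8 at 785 to 1165 CPM, the gene's counts scaled to a common library total. The junction gene CDH1 stayed at or below 1.57 CPM and EPCAM at or below 1.97 CPM, and the basal cell genes KRT5, KRT14 and TP63 had at most 5 counts in any library. Of the epithelial markers, 6 of 9 could be tested, and KRT8, KRT18 and KRT7 fell in EC vs. control (LFC −0.25, −0.46 and −0.45, adjusted p = 0.0177, 0.000125 and 0.000202), while KRT19, CDH1 and EPCAM had LFC of 0.18, 0.36 and 0.57 (adjusted p = 0.275, 0.604 and 0.218). The summed level of the 9 epithelial markers was 1765 to 2759 CPM in control, 1753 to 2715 in PG/VG and 1524 to 2313 in EC libraries. Among 4 fibroblast markers PDGFRB made up nearly all of the signal and rose in both comparisons with control (EC LFC 0.25, adjusted p = 0.0458, and PG/VG LFC 0.31, adjusted p = 0.035), with summed levels of 21.3 to 59.4, 27.9 to 75.2 and 31.2 to 70.3 CPM in control, PG/VG and EC. Endothelial markers summed to 4.29 to 7.72 CPM and immune markers to at most 0.393 CPM, with CD3E at 0 counts in every library. The part that these marker differences have in the results for the members was not tested.

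The core element that hypoxia-inducible factor binds reads ACGTG or GCGTG. Both motifs were searched on both strands of the 250 bases before each start site in RefSeq (GRCh38.p14), where the reverse complement of ACGTG is CACGT and that of GCGTG is CACGC, and where a CACGTG palindrome holds ACGTG and its reverse complement overlapping by all but 1 base. A RefSeq window was matched for 32 of the 36 members. ACGTG was present before at least 1 start site of 19 members (59.4%), against 21.7% of all 27305 genes with a window and 28.5% of the 11426 genes tested here. GCGTG was present in 15 members (46.9%), against 36.2% of all genes and 52.8% of the genes tested. A gene with more start sites, such as HK1 or PFKM with 7 each, had more windows for a match. These shares were not corrected for that. A match describes letters only and marks no bound site. Of the 8 members that rose with EC, 7 had a window and 4 of those (57.1%) held a match to either motif, against 81.2% of the members with a window and 64.3% of the genes tested. These 4 windows are shown because they hold a match. Their start sites are those of RefSeq, whereas the gene coordinates given below are from GENCODE. By those coordinates the windows of ANGPTL4 and PFKFB4 lie inside the gene, and those of P4HA1 and ALDOC lie partly inside it. All 4 windows are read 5′ to 3′ on the strand of the gene, ending at the base before the RefSeq start site. Capitals mark the matches. The window of ANGPTL4 is chr19:8363905-8364154 on the plus strand, with CACGT starting at −234 from the start site. Those of PFKFB4 (chr3:48556804-48557053, GCGTG at −166) and P4HA1 (chr10:73096867-73097116, CACGT at −86) lie on the minus strand. The window of ALDOC (chr17:28576896-28577145, minus strand) holds 5 matches, of which the pair at −240 and −239 share a CACGTG, and the others begin at −108, −45 and −28. 
ANGPTL4: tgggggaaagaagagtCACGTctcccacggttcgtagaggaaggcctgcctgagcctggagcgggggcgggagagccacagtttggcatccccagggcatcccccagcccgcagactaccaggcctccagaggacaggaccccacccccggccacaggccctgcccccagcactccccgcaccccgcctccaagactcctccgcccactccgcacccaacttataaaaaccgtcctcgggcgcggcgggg
PFKFB4: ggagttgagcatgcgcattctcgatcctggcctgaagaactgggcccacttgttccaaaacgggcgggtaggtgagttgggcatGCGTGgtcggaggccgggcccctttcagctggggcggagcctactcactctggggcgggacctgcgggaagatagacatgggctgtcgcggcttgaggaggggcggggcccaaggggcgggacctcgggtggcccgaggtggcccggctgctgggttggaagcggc
P4HA1: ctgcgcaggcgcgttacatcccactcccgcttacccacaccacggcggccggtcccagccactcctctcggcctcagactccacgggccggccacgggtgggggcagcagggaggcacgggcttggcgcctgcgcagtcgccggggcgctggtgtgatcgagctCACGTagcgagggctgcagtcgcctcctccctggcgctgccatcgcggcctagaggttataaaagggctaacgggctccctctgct
ALDOC: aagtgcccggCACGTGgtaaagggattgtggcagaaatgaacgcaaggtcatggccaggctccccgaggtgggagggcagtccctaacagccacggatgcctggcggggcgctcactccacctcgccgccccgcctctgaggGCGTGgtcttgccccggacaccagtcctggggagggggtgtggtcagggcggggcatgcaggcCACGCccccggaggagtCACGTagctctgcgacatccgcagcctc
The matched windows of SLC2A1, EGLN3 and P4HA2, which also rose with EC, held neither motif, nor did that of LDHB, which fell.

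In EC vs. control, 8 members rose and 1 fell. Of those that rose 5 belong to the hypoxia response and 3 to glycolysis, among them 1 of the 15 enzymes of the glycolytic chain. The genes that rose were the glucose transporter SLC2A1, the aldolase ALDOC, the regulator PFKFB4, the prolyl hydroxylase EGLN3, the secreted lipase inhibitor ANGPTL4, the collagen prolyl hydroxylases P4HA1 and P4HA2, and the stress-response gene NDRG1. LDHB, the lactate dehydrogenase subunit of oxidative tissues, was the member that fell. A gene was called differentially expressed (a DEG) at an adjusted p under 0.05 in the quasi-likelihood test of edgeR, adjusted by Benjamini and Hochberg's method over all 16030 genes, with batch as a term and no cutoff on the log2 fold change (LFC). The 9 DEGs are 25% of the members, against 13.5% of all genes tested. By direction, 22.2% of the members were called higher and 2.78% lower, against 8.07% and 5.38% of all genes. An unadjusted p under 0.05 was reached by 14 members (38.9%, against 27.4% of all genes). Without the batch term edgeR called 0 members, with 4 at an unadjusted p under 0.05, and 16 of all genes. By sign alone, 16 members were higher and 20 lower in EC, with a median LFC of −0.02 for the members and 0.0078 for all genes, and the members' median took either sign when single libraries were left out. The 14 hypoxia genes had 5 DEGs (35.7%), all higher, and a median LFC of 0.20, which was −0.01 when batch 4 was left out. The 22 glycolysis genes had 4 DEGs (18.2%), 3 of them higher, and a median LFC of −0.05.

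**Figure D1:**
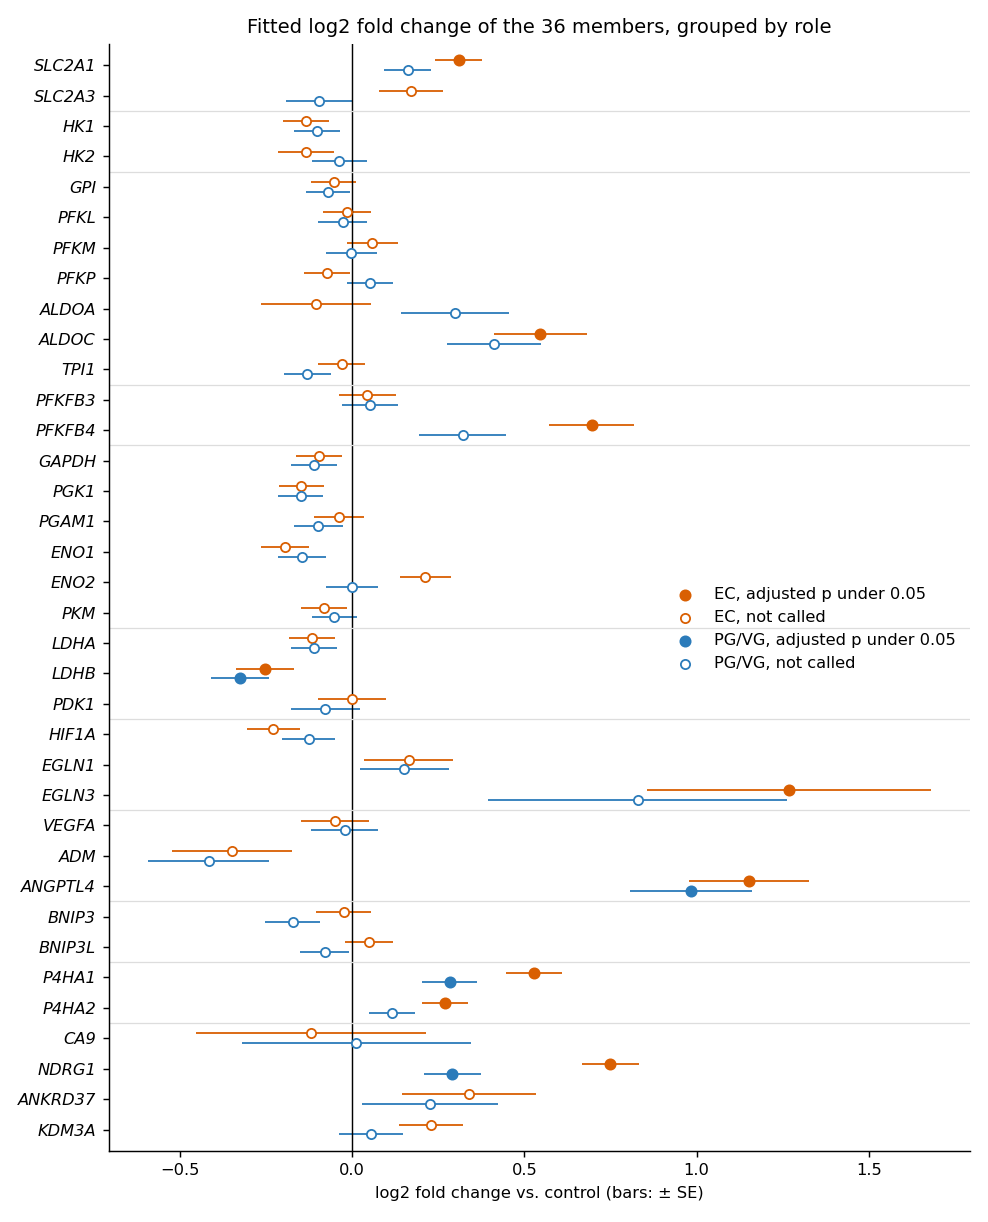
Log2 fold change of each of the 36 members for either exposure against untreated control, from the edgeR fit with batch, with bars of 1 SE on either side; filled points have an adjusted p under 0.05. The LFC values lie between −0.42 and 1.27, with EGLN3, ANGPTL4, NDRG1 and PFKFB4 farthest to the right for EC and the chain enzymes other than ALDOC between −0.20 and 0.21 for EC.

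Glucose entry was represented by SLC2A1 (GLUT1; ENSG00000117394, chr1:42925353-42958893, minus strand), the transporter that most cultured cells rely on. Its level was 226, 243 and 307 CPM in control batches 2, 3 and 4, 255, 264 and 352 in PG/VG and 272, 279 and 421 in EC. In every batch the EC library was the highest of the 3 and the control library the lowest, although the groups overlapped because batch 4 ran high. The means were 259 ± 42.5 CPM (SD, n = 3) in control and 324 ± 84.2 in EC, a 1.24-fold rise in the blocked fit (LFC 0.31, SE 0.0681, adjusted p = 0.00411). The call was lost without the EC library of batch 4. SLC2A3 (GLUT3), a high-affinity transporter, lay between 16.2 and 40.7 CPM and did not pass the test (LFC 0.17, SE 0.0935, adjusted p = 0.246).

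PFKFB4 (ENSG00000114268, chr3:48517684-48562015, minus strand) encodes an enzyme that makes and degrades fructose-2,6-bisphosphate, an activator of phosphofructokinase. It stood at 5.91, 6.5 and 12.9 CPM in control, 6.68, 7.71 and 18 in PG/VG and 9.28, 8.94 and 24 in EC. The batch 4 library was the highest of each group, and within each batch the EC library was the highest of the 3. The mean was 8.45 ± 3.9 CPM in control and 14.1 ± 8.6 in EC, and the blocked fit gave a 1.62-fold rise (LFC 0.69, SE 0.123, adjusted p = 5.56e-04), which passed the test in all 9 fits that left out a library. Its relative PFKFB3, the form with the strongest kinase activity, had an LFC of 0.04 (SE 0.0816, adjusted p = 0.78).

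ALDOC (ENSG00000109107, chr17:28573115-28576948, minus strand), the brain-type aldolase that cleaves fructose-1,6-bisphosphate, was the chain enzyme that rose. Its level was 14.1, 14.2 and 22.6 CPM in control, 17.8, 19.8 and 29.9 in PG/VG and 16.7, 17.5 and 44.5 in EC, so that the EC library of batch 4 stood apart from the other 8. The rise was 1.46-fold (LFC 0.55, SE 0.135, adjusted p = 0.0126), and without that EC library the LFC was 0.26 and no longer passed the test. The call was also lost without the control library of batch 4. A share of 11.3% of its exon length overlaps another annotated gene.

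The other 14 enzymes from hexokinase to pyruvate kinase had no DEG in EC vs. control, with LFC between −0.20 and 0.21, and 3 of them reached an unadjusted p under 0.05. Among these 14, ENO1 was called with DESeq2, under RLE scaling and without the EC library of batch 2, and ENO2 with control and EC libraries compared alone and without the PG/VG library of batch 4. ComBat-Seq adjustment followed by DESeq2 called both, with HK1 and PGK1. By sign, 12 of the 14 were lower in EC, and the chain of 15 was 12 lower to 3 higher, also under RLE scaling and after thinning to equal depth. It was 9 to 6 without the EC library of batch 3, and 11 to 4 without the control library of batch 3 or 4 or the EC library of batch 2. GAPDH (ENSG00000111640, chr12:6534512-6538374, plus strand), which oxidizes glyceraldehyde-3-phosphate and serves as a common reference gene, stood at 2262, 2274 and 2554 CPM in control, 1996, 2193 and 2382 in PG/VG and 2192, 2163 and 2263 in EC (LFC −0.10, SE 0.0672, adjusted p = 0.382). Its control and EC values overlapped, and 17.6% of its exon length is shared with another annotated gene. ENO1, the main enolase, had lower values in all 3 EC libraries (2394, 2253 and 2436) than in any control library (2539.7, 2618 and 2966) without passing the test (LFC −0.20, SE 0.0688, adjusted p = 0.0629). ENO2, the neuronal enolase, went the other way, at 91.4, 96.3 and 156 CPM in control and 108, 109 and 183 in EC (LFC 0.21, SE 0.0743, adjusted p = 0.0605).

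The remaining chain enzymes were close to their control levels in EC. Of the hexokinases that phosphorylate glucose, HK1 had an LFC of −0.14 (SE 0.0669) and HK2 of −0.13 (SE 0.0812). The isomerase GPI and the phosphofructokinases PFKL, PFKM and PFKP, which commit sugar to the pathway, ranged from −0.07 for PFKP to 0.06 for PFKM. PFKP was lower in every EC library than in any control library by a small margin, at 449.9, 460.4 and 458 against 461, 499 and 479 CPM. The triose isomerase TPI1 had an LFC of −0.03, the ATP-forming kinase PGK1 of −0.15, the mutase PGAM1 of −0.04 and the pyruvate kinase PKM of −0.08. For ALDOA, the main aldolase, 54.2% of the exon length overlaps other genes and reads there are not counted, so its LFC of −0.10 (SE 0.16) rests on a part of its transcript.

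At the end of the pathway, LDHA (ENSG00000134333, chr11:18394560-18408425, plus strand), the lactate dehydrogenase subunit that favors lactate, was at 1129, 1038 and 1480.4 CPM in control, 984, 1000.5 and 1399 in PG/VG and 999, 943 and 1446 in EC. Batch 4 was the highest library in each group and the groups overlapped (LFC −0.12, SE 0.0661, adjusted p = 0.267). LDHB (ENSG00000111716, chr12:21635342-21757857, minus strand) was at 38.6, 33.3 and 37.5 CPM in control, 29.4, 25.2 and 32.8 in PG/VG and 33.5, 26.3 and 32 in EC. It was lower than control in every batch under either exposure, and the fall in EC was to 0.838 times the control level (LFC −0.25, SE 0.0844, adjusted p = 0.0475). A share of 33.4% of its exon length overlaps another gene, and DESeq2 and 7 of the 9 fits that left out a library did not call it in EC. Those without the PG/VG library of batch 4 and without the EC library of batch 2 did. PDK1 (ENSG00000152256, chr2:172555373-172608669, plus strand), a kinase that inactivates pyruvate dehydrogenase, had means of 29.9 ± 3.2 CPM in control and 29.9 ± 2.79 in EC, with library values of 33.5, 29 and 27.3 and 28, 28.5 and 33.1 that overlapped fully (LFC −0.0002, SE 0.0988, adjusted p = 0.999).

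**Figure D2:**
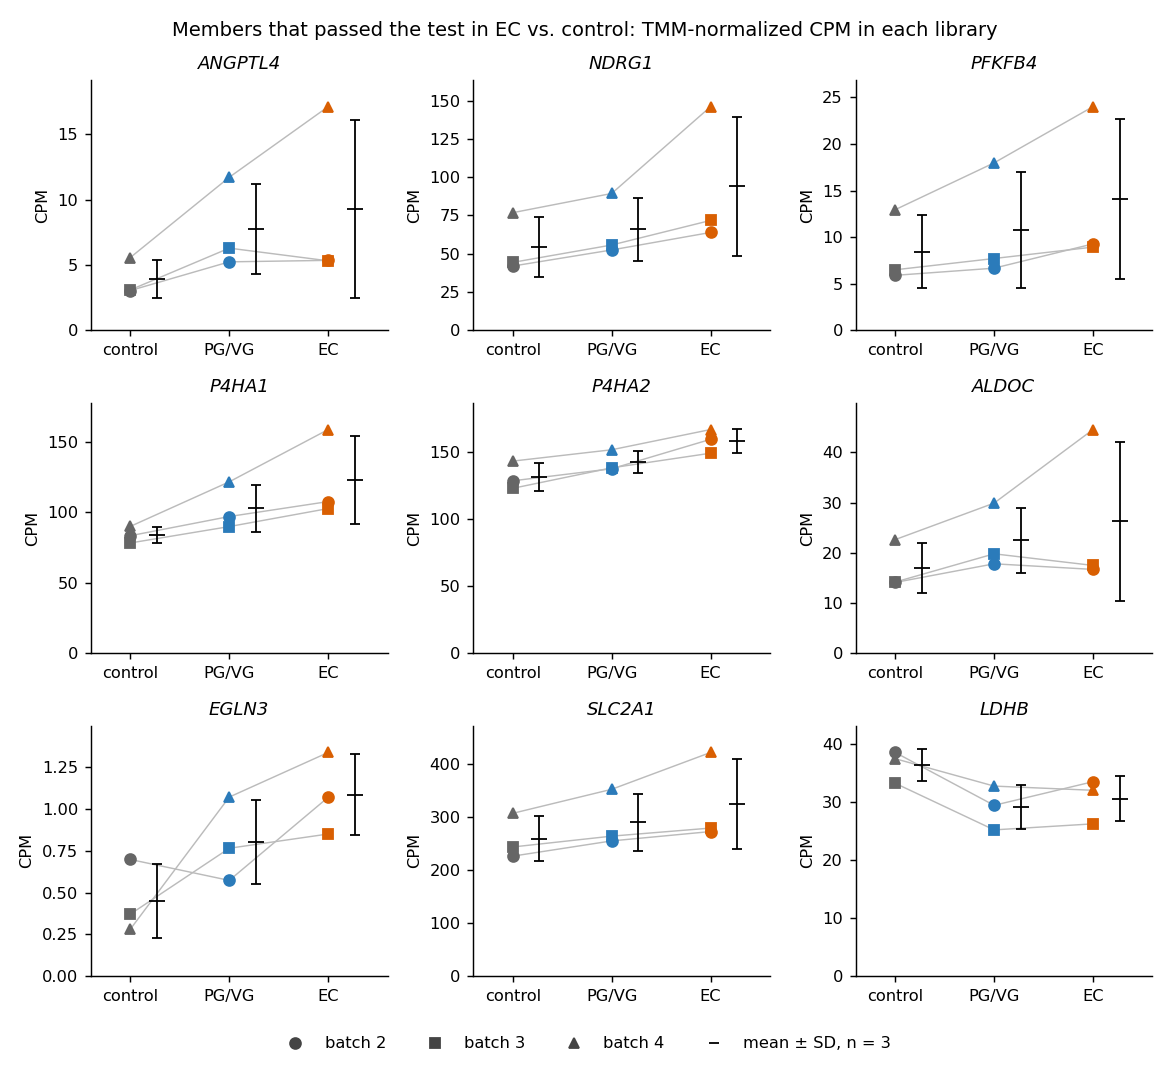
TMM-normalized CPM of the 9 members called in at least 1 comparison, by group, with 1 point per library, marker shapes and joining lines for batches 2, 3 and 4, and the mean with SD bars (n = 3) beside them. ANGPTL4 goes from 3.05 to 5.57 CPM in control to 5.32 to 17.1 in EC, and batch 4 (triangles) is the highest library of its group for SLC2A1, PFKFB4, ALDOC, ANGPTL4, P4HA1, P4HA2 and NDRG1.

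Among the oxygen sensors, EGLN3 (ENSG00000129521, chr14:33924227-34462774, minus strand), a prolyl hydroxylase that is itself induced by the factor it restrains, had few reads. Its counts were 11, 6 and 5 in control, 14, 14 and 25 in PG/VG and 27, 20 and 27 in EC, or 0.699, 0.372 and 0.281, 0.573, 0.766 and 1.07 and 1.07, 0.851 and 1.34 CPM. The EC values all lay above the control values (LFC 1.27, SE 0.413, adjusted p = 0.0441). The call was made in 3 of the 9 fits that left out a library, those without the control library of batch 2 and without the PG/VG library of batch 2 or 3. The LFC was 0.81 without the control library of batch 4, and DESeq2 did not call it. EGLN1, the main oxygen-sensing hydroxylase, had an LFC of 0.16 (SE 0.13, adjusted p = 0.455), with 55.8% of its exon length overlapping another gene.

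HIF1A (ENSG00000100644, chr14:61695513-61748259, plus strand), the oxygen-regulated alpha subunit, which is controlled mainly at the protein level, was at 464, 419 and 517 CPM in control, 394, 359 and 542 in PG/VG and 384, 386 and 419.5 in EC. It was lower in EC than in control in every batch, with the groups overlapping by a single EC library. The LFC was −0.23 (SE 0.0773) and the adjusted p of 0.0515 was just outside the threshold. RLE scaling, DESeq2, ComBat-Seq, thinning, a looser count filter, a fit of control and EC libraries alone and 3 of the 9 fits that left out a library placed it below the threshold, with LFC from −0.31 to −0.16 over the latter 9. Antisense transcripts share part of its exon length (11.3% in all), and without a stated strand setting reads of the gene and its antisense partners cannot be told apart.

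Of the secreted factors, ANGPTL4 (ENSG00000167772, chr19:8363289-8374370, plus strand), which inhibits lipoprotein lipase and is a target of hypoxia-inducible factor and of lipid-sensing receptors, rose in both exposures. Its level was 3.05, 3.1 and 5.57 CPM in control, 5.24, 6.29 and 11.7 in PG/VG and 5.36, 5.32 and 17.1 in EC. Within each batch both exposed libraries were above the control library, and the EC library of batch 4 was the highest of all 9. The mean went from 3.91 ± 1.44 CPM to 9.26 ± 6.8 in EC, a 2.22-fold rise (LFC 1.15, SE 0.174, adjusted p = 1.27e-04), called in all 9 fits that left out a library with LFC from 0.83 to 1.31. VEGFA (ENSG00000112715, chr6:43770184-43786487, plus strand), the endothelial growth factor and a classical hypoxia target, was at 123, 131 and 105 CPM in control, 125, 116 and 111 in PG/VG and 105, 108 and 133 in EC, with overlapping groups (LFC −0.05, SE 0.0978, adjusted p = 0.797). ADM, which encodes the vasodilator adrenomedullin, was at 29.4, 28.4 and 34.4 CPM in control, 23.1, 21 and 24.8 in PG/VG and 19, 17.7 and 38.7 in EC. The EC libraries of batches 2 and 3 were the lowest of the 9 and that of batch 4 the highest (LFC −0.35, SE 0.175, adjusted p = 0.242), and a fit without batch 4 called ADM lower.

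**Figure D3:**
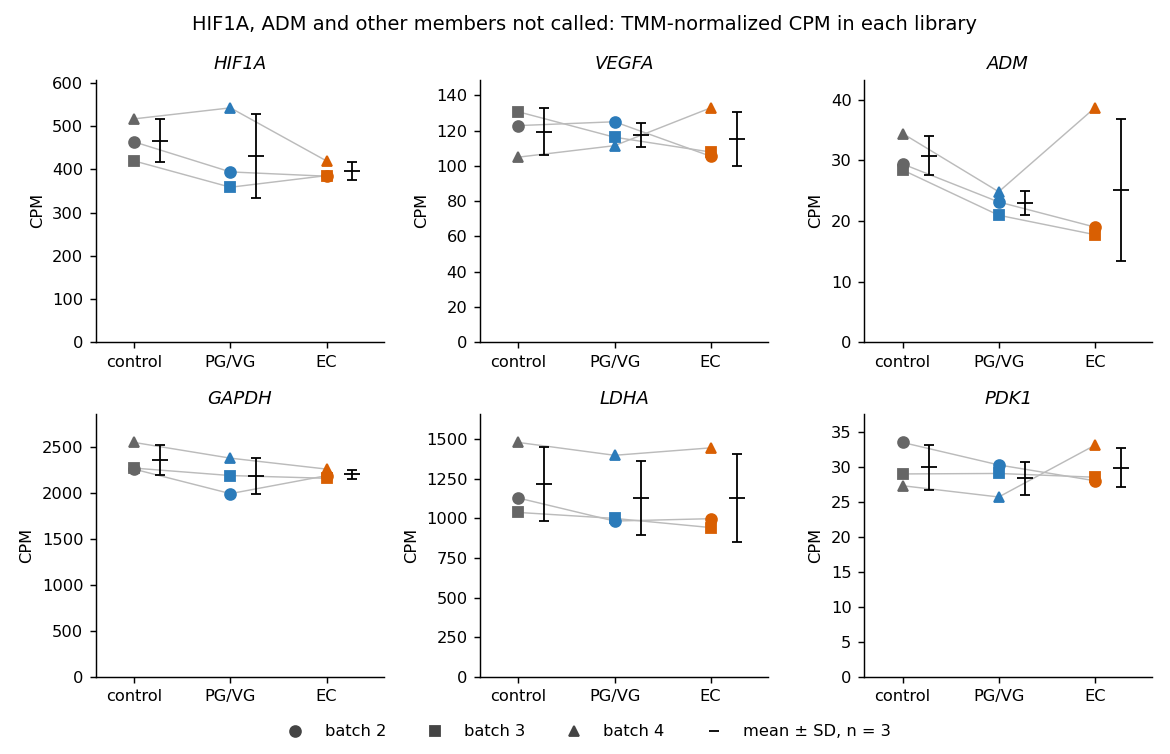
TMM-normalized CPM of HIF1A, VEGFA, ADM, GAPDH, LDHA and PDK1, none of them a DEG, by group, with 1 point per library, shapes and lines for batches, and mean ± SD (n = 3) beside the points. HIF1A lies between 384 and 420 CPM in EC and 419 to 517 in control, and for VEGFA and ADM the line of batch 4 runs against those of batches 2 and 3 from PG/VG to EC.

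The collagen prolyl hydroxylases, which stabilize the collagen triple helix, rose together. P4HA1 (ENSG00000122884, chr10:73007217-73096974, minus strand) was at 83.3, 78.2 and 89.9 CPM in control, 97, 89.8 and 122 in PG/VG and 108, 103 and 159 in EC, and P4HA2 (ENSG00000072682, chr5:132190147-132295315, minus strand) at 128, 123 and 143, 137, 138 and 151 and 159, 149 and 166. For both genes the lowest EC library was above the highest control library. The rise was 1.44-fold for P4HA1 (LFC 0.53, SE 0.0809, adjusted p = 1.43e-04) and 1.21-fold for P4HA2 (LFC 0.27, SE 0.0665, adjusted p = 0.00888). P4HA1 passed in all 9 fits that left out a library and P4HA2 in 7, the exceptions being those without the control library of batch 2 or of batch 3. Library values that did not overlap between EC and control were seen for EGLN3, P4HA1 and P4HA2 in the higher direction and for PFKP and ENO1 in the lower, 3 and 2 of the 36 members, against 9.83% and 7.42% of all genes.

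NDRG1 (ENSG00000104419, chr8:133237175-133302022, minus strand), a growth-arrest and hypoxia-response gene that has also been described as a target of other stress pathways, had the smallest adjusted p of the members. It was at 42, 44.4 and 76.8 CPM in control, 52.5, 55.7 and 89.4 in PG/VG and 64, 71.8 and 146 in EC. In each batch the order was control, PG/VG, EC from low to high. The EC mean of 93.9 ± 45.3 CPM compared with 54.4 ± 19.5 in control, a 1.68-fold rise (LFC 0.75, SE 0.0824, adjusted p = 4.28e-06). CA9 (ENSG00000107159, chr9:35673928-35681159, plus strand), a membrane carbonic anhydrase that is among the most strongly hypoxia-induced genes in epithelial tumors, stayed low, at 0.762, 1.11 and 2.03 CPM in control, 1.15, 1.2 and 1.46 in PG/VG and 0.873, 0.553 and 2.33 in EC. These are 12 to 47 counts per library, 35.7% of its exon length overlaps ARHGEF39, and no difference was detectable at this depth (LFC −0.12, SE 0.334, adjusted p = 0.862). The mitophagy receptors BNIP3 and BNIP3L had LFC of −0.02 and 0.05, the ankyrin repeat gene ANKRD37 of 0.34 (adjusted p = 0.273) and the histone demethylase KDM3A of 0.23 (adjusted p = 0.107), none of them a DEG.

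In PG/VG vs. control, which shares its control libraries with the EC comparison, 3 members rose and 1 fell. These 4 DEGs are 11.1% of the members, against 4.54% of all genes. By direction, 2.63% of all genes were called higher and 1.9% lower. An unadjusted p under 0.05 was reached by 11 members (30.6%, against 20.1% of all genes). ANGPTL4 rose 1.98-fold (LFC 0.98, SE 0.178, adjusted p = 0.0024) and was called in all 9 fits that left out a library. NDRG1 rose 1.22-fold (LFC 0.29, SE 0.0831, adjusted p = 0.0467) and P4HA1 1.22-fold (LFC 0.28, SE 0.0811, adjusted p = 0.047), both close to the threshold, and neither was called by DESeq2 with batch or under RLE scaling, while ComBat-Seq with DESeq2 called both. Leaving out the control library of batch 2 or 3 or the PG/VG library of batch 2 or 3 ended the calls of NDRG1, P4HA1 and LDHB, and leaving out the control library of batch 4 those of NDRG1 and P4HA1, with an LFC of 0.17 for P4HA1. P4HA1 was also lost without the PG/VG library of batch 4. LDHB fell to 0.798 times control (LFC −0.32, SE 0.0849, adjusted p = 0.0287). No member had PG/VG values fully above control (7.79% of all genes did), and the values of ENO1, LDHB and ADM lay fully below, 3 of 36 members against 6.37% of all genes. HIF1A had an LFC of −0.13 (adjusted p = 0.38), SLC2A1 of 0.16 (adjusted p = 0.181), ALDOC of 0.41 (adjusted p = 0.0972), PFKFB4 of 0.32 (adjusted p = 0.149) and EGLN3 of 0.83 (adjusted p = 0.293). Of the chain enzymes, 12 of 15 had LFC below 0 (9 of 15 without the control or the PG/VG library of batch 4), with no DEG and 3 at an unadjusted p under 0.05, while ComBat-Seq with DESeq2 called ALDOC, ENO1 and PGK1.

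EC vs. PG/VG set the e-cigarette liquid against a separate carrier liquid. The paper gives no ratio of propylene glycol to glycerol for the e-cigarette liquid. Effects of nicotine, flavor and carrier composition therefore cannot be told apart here. NDRG1 was the member that differed, 1.37-fold higher in EC (LFC 0.46, SE 0.0806, adjusted p = 0.00444), or 2.78% of the members against 0.855% of all genes, of which 0.555% were called higher and 0.299% lower. An unadjusted p under 0.05 was reached by 8 members (22.2%, against 12.9% of all genes). The NDRG1 call was lost without the EC library of batch 4 and without the PG/VG library of batch 4, while the LFC stayed between 0.34 and 0.54. PFKFB4 had an LFC of 0.37 (SE 0.115, adjusted p = 0.145) and P4HA1 of 0.25 (SE 0.0796, adjusted p = 0.161). For ANGPTL4, which rose in both exposures, the difference was 0.17 (SE 0.153, adjusted p = 0.709). BNIP3L had EC values (189, 180.1 and 202 CPM) that lay above all PG/VG values (176, 168 and 179 CPM) with an adjusted p of 0.457, the only member of 36 without overlap, where 4.54% of all genes lay fully above and 3.37% fully below. By sign, 25 of 36 members were higher in EC than in PG/VG, but 16 of 36 without the EC library of batch 4.

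More of the members were called for batch than for either exposure, and so were more of all genes. The batch test covers any difference among 3 batches, whereas each exposure test compares a single pair of groups. Batch differed for 22 of the 36 members (61.1%), against 34.3% of all genes, in the test of any difference among the 3 batches. All 22 lay higher in batch 4 than in the mean of batches 2 and 3, where 17.2% of all genes were called and higher and 17.1% called and lower. In these sentences the LFC is that of batch 4 over the mean of the others, and the adjusted p that of any difference. The median LFC of batch 4 over batches 2 and 3 was 0.31 for the members and −0.0031 for all genes. The members took 1.5% to 1.57% of the counts in batch 4 libraries and 1.21% to 1.3% in the others. NDRG1 had the smallest adjusted p, at 52.8 ± 11, 57.3 ± 13.8 and 104 ± 36.9 CPM in batches 2, 3 and 4 (SD over the 3 groups; LFC 0.89, SE 0.0684, adjusted p = 2.02e-09). It was followed by PFKFB4 with 7.29 ± 1.77, 7.72 ± 1.22 and 18.3 ± 5.54 (LFC 1.28, SE 0.0982, adjusted p = 2.24e-09) and by SLC2A3 with 18.2 ± 1.71, 18.1 ± 1.53 and 35.1 ± 4.8 (LFC 0.95, SE 0.0774, adjusted p = 5.92e-09). BNIP3, the mitophagy receptor, stood at 93.3 ± 10.9, 85 ± 3.36 and 151 ± 17 (LFC 0.76, SE 0.0671, adjusted p = 1.79e-08) and ENO2 at 98.3 ± 8.39, 103 ± 6.23 and 159 ± 22.6 (LFC 0.65, SE 0.0628, adjusted p = 7.68e-08). The transporters, both hexokinases, LDHA, HIF1A and CA9 were also among the 22, as was LDHB, whose low batch was batch 3 (33.8 ± 4.56, 28.2 ± 4.37 and 34.1 ± 2.96 CPM), whereas VEGFA (−0.01), PDK1 (−0.05) and EGLN1 (−0.01) were not called. Other measures moved with batch 4. The summed epithelial markers were 1524 to 1765 CPM there and 2057 to 2759 in batches 2 and 3, fibroblast markers 21.3 to 31.2 against 57.8 to 75.2, and endothelial markers 5.95 to 7.72 against 4.29 to 5.59. Their part in the batch difference was not tested, and in bulk RNA fewer cells with a transcript and less of it per cell cannot be told apart. The labels do not say what a batch shared.

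**Figure D4:**
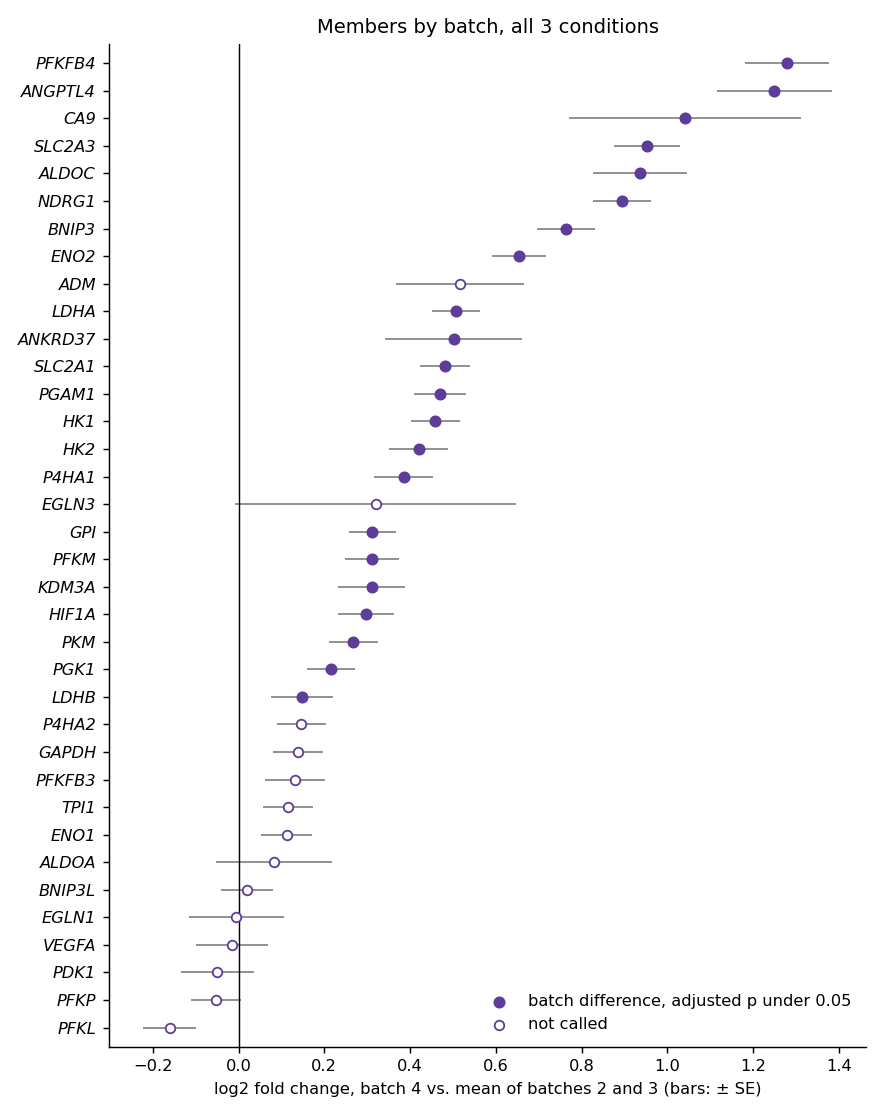
Log2 difference of batch 4 from the mean of batches 2 and 3 for each of the 36 members, over all 3 groups, with bars of 1 SE of that difference and filled points for an adjusted p under 0.05 in the test of any difference among the 3 batches. Of the 36 points 31 lie above 0 and all 22 filled points are on that side, led by PFKFB4 at 1.28 and ANGPTL4 at 1.25.

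Because batch and exposure could interact, each exposed library was set against the control of its own batch. For EC, the median log2 difference over the 14 hypoxia genes was 0.065 in batch 2, −0.05 in batch 3 and 0.44 in batch 4, with 7, 6 and 13 of 14 genes higher. Over the 22 glycolysis genes it was −0.04, −0.09 and −0.02, and over all genes 0.0032, 0.020 and 0.0086. For PG/VG the hypoxia genes had 0.061, 0.041 and 0.15, with 8, 7 and 11 higher. For EC against PG/VG the medians were 0.0100, 0.032 and 0.35, with 7, 7 and 13 higher. Every member that rose in EC vs. control was higher in EC in all 3 batches. SLC2A1 differed by 0.27, 0.20 and 0.46 in batches 2, 3 and 4, and ALDOC by 0.24, 0.30 and 0.97. NDRG1 differed by 0.61, 0.69 and 0.93 in batches 2, 3 and 4, ANGPTL4 by 0.79, 0.76 and 1.60, P4HA1 by 0.37, 0.39 and 0.82, P4HA2 by 0.31, 0.28 and 0.22 and PFKFB4 by 0.64, 0.45 and 0.89. In contrast VEGFA differed by −0.22, −0.28 and 0.34 and ADM by −0.63, −0.68 and 0.17, with batch 4 on the other side of 0 from batches 2 and 3. The same held for EGLN1 (−0.04, −0.16 and 0.69), PFKFB3 (−0.11, −0.07 and 0.31), PDK1 (−0.26, −0.02 and 0.28) and HK2 (−0.35, −0.18 and 0.12). PFKM had the reverse change (0.13, 0.14 and −0.09). Without batch 4, 6 members (16.7%, against 7.85% of all genes in that fit) were called in EC vs. control, namely ANGPTL4, NDRG1, P4HA1, P4HA2 and PFKFB4 as higher and ADM as lower. SLC2A1, ALDOC, EGLN3 and LDHB then missed the threshold.

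**Figure D5:**
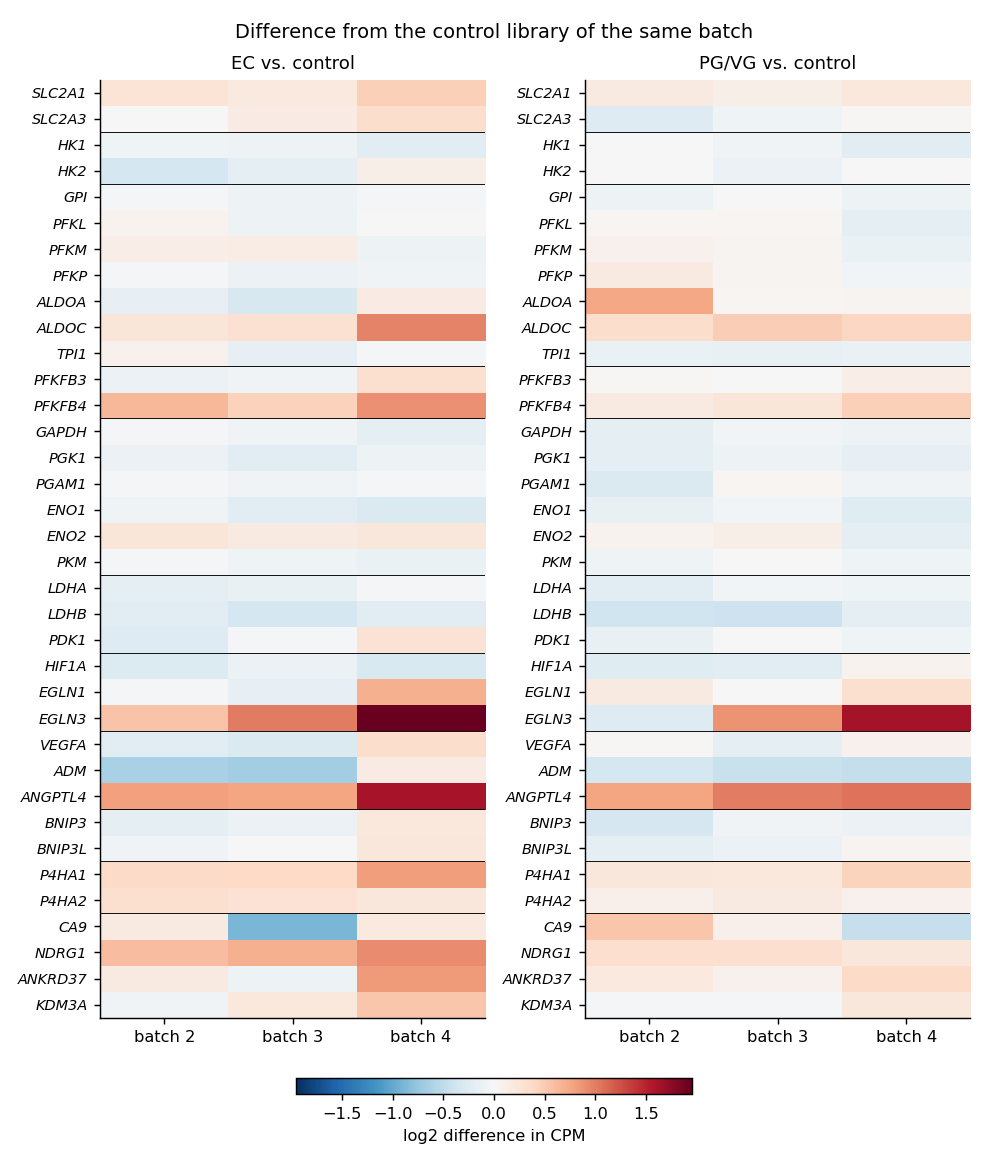
Log2 difference from the control library of the same batch for each of the 36 members (rows, by role) in PG/VG and in EC (columns, batches 2, 3 and 4), colored by the difference, with red for higher and blue for lower. The EC column of batch 4 is the reddest for the hypoxia genes, where 13 of 14 are higher, against 7 and 6 in batches 2 and 3.

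The interaction was tested in edgeR as the difference between the EC effect in batch 4 and its mean in batches 2 and 3, with 1 library per group and batch, so that the remaining spread comes from batches 2 and 3 alone. No member passed the adjusted threshold, against 0.0125% of all genes, and the smallest adjusted p was 0.233. An unadjusted p under 0.05 was reached by 12 members, all with a more positive EC minus control difference in batch 4. Of all genes, 7.55% reached it in either direction and 3.67% in that one. A more positive difference is not always a larger one. Members for which it was below 0 in batches 2 and 3 and above 0 in batch 4 included ADM, VEGFA, HK2, EGLN1, PFKFB3 and PDK1. In all, 29 of the 36 estimates were above 0, with a median of 0.27 (all genes −0.01). The largest evidence per gene was for ADM (0.82 ± 0.166 (SE), unadjusted p = 2.68e-04, adjusted p = 0.233), EGLN1 (0.80 ± 0.18 (SE), unadjusted p = 7.07e-04, adjusted p = 0.273) and VEGFA (0.59 ± 0.14 (SE), unadjusted p = 0.00101, adjusted p = 0.283). For PG/VG, 0 members passed and the median was 0.03. An unadjusted p under 0.05 was reached by 1 member, with a more positive difference in batch 4. Of all genes, 6.5% reached it in either direction and 2.89% in that one. This test was chosen after the values by batch were seen.

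Genes of the same pathways outside the 36 were taken from a pair of lists. PFKFB2 and PGM1 are in both lists, so their batch calls are counted in each. Of 49 other glycolysis and pyruvate genes, 32 could be tested, with a median LFC of 0.15 in EC vs. control. There 5 rose and 2 fell (21.9% called, against 13.5% of all genes). HKDC1, a hexokinase relative, went from 1.94 ± 0.274 to 3.53 ± 0.437 CPM (LFC 0.86, adjusted p = 0.0104). The glucose transporter SLC2A10 went from 12 ± 1.76 to 19.6 ± 2.48 (LFC 0.71, adjusted p = 1.01e-04) and was 17.2 ± 0.733 in PG/VG (LFC 0.53, adjusted p = 0.0057). The muscle enolase ENO3 rose in EC (LFC 0.65, adjusted p = 0.0109) and in PG/VG (LFC 0.77, adjusted p = 0.00907). With SLC2A10 it made up the 2 DEGs of PG/VG (6.25%, against 4.54% of all genes). The inositol transporter SLC2A13 rose (LFC 0.55, adjusted p = 0.00979), as did MINPP1 (LFC 0.29, adjusted p = 0.0287). PDHA1, a subunit of pyruvate dehydrogenase, fell (LFC −0.26, adjusted p = 0.0143), as did the phosphoglucomutase PGM2 (LFC −0.23, adjusted p = 0.0342). In EC vs. PG/VG, edgeR called 0 of the 32, against 0.855% of all genes. Of the 32, 3 had an unadjusted p under 0.05 (9.38%, against 12.9% of all genes). Batch differed for 15 of the 32 (46.9%, against 34.3% of all genes), 11 higher and 4 lower in batch 4.

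Of 60 other genes of the HIF pathway and its induced genes, 56 could be tested, with a median LFC of 0.09 in EC vs. control. There 9 rose and 4 fell (23.2% called, against 13.5% of all genes). In PG/VG vs. control 3 rose and 2 fell (8.93%, against 4.54% of all genes). The largest differences in EC were in CXCR4, a chemokine receptor with levels of 0.191, 0.124 and 0.338 CPM in control and 0.476, 0.213 and 1.44 in EC (LFC 1.62, adjusted p = 0.0374), and in the nuclear receptor RORA (2.82-fold higher, adjusted p = 0.0147). EDN1, the vasoconstrictor endothelin, fell from 12.7 ± 4.35 to 5.74 ± 1.15 CPM in EC (LFC −1.12, adjusted p = 1.08e-05) and to 7.45 ± 2.18 in PG/VG (LFC −0.76, adjusted p = 0.00185). The circadian and stress repressor BHLHE40 rose in EC (LFC 0.77, adjusted p = 7.97e-06) and PG/VG (LFC 0.45, adjusted p = 0.00618), and the carbonic anhydrase CA12 rose in EC (LFC 0.73, adjusted p = 0.00411). CITED2, which competes with hypoxia-inducible factor for its coactivator, fell in EC (LFC −0.34, adjusted p = 0.0013) and PG/VG (LFC −0.29, adjusted p = 0.0115). The creatine transporter SLC6A8 (LFC 0.27, adjusted p = 0.0334) and the collagen lysyl hydroxylase PLOD1 (LFC 0.23, adjusted p = 0.0482) completed the DEGs of PG/VG. In EC vs. PG/VG, 3 of the 56 were called (5.36%, against 0.855% of all genes), named here after their values were seen. The heme oxygenase HMOX1 (LFC 0.55, adjusted p = 0.00265) and the sterol regulator INSIG1 (LFC 0.41, adjusted p = 0.0296) were higher. The lysyl oxidase LOXL2 (LFC −0.28, adjusted p = 0.0323) was lower. Batch differed for 37 of the 56 (66.1%, against 34.3% of all genes), 28 higher and 9 lower in batch 4.

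Relative use of related enzymes was compared per kilobase of the canonical transcript. SLC2A1 was 13.2 ± 2.35 times SLC2A3 in control (SD, n = 3), 15.9 ± 3.21 in PG/VG and 14.6 ± 2.49 in EC. HK1 was 3.06 ± 0.377 times HK2 in control and 3.06 ± 0.320 in EC. ENO1 was 31.8 ± 6.32 times ENO2 in control and 24.2 ± 6.14 in EC, and PFKFB3 was 7.30 ± 2.77 times PFKFB4 in control and 4.70 ± 1.70 in EC. Within batches 2, 3 and 4, ENO1 over ENO2 went from 35.8 to 28.6, 35.0 to 26.7 and 24.5 to 17.2 between control and EC, and PFKFB3 over PFKFB4 from 9.23 to 5.43, 8.54 to 5.91 and 4.12 to 2.76, lower in EC in every batch. The ratio of SLC2A1 to SLC2A3 was higher in EC in every batch and that of HK1 to HK2 in batches 2 and 3 only. No test was run on these ratios. The order of the relatives was the same over the union of exons for SLC2A1, HK1, ENO1 and PFKFB3.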

How the data were processed

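RNA from BEAS-2B cells of the 3 groups was sequenced in 9 libraries. The deposited table holds raw counts for 63187 genes, which the authors made by trimming with fastp, aligning with STAR to GRCh38.p12 and counting on exons with featureCounts (Subread 2.0.4, per the labels and the study's methods). The strand setting is not given in the sources used here, and reads over more than 1 gene were not counted, so genes with overlapping exons lose reads. No column was left out, and the authors' own comparisons were not used.

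The filtered genes (10 counts or more in 3 libraries or more) were tested with edgeR 4.0.16 (R 4.3.3) by TMM scaling and the quasi-likelihood test in 1 fit of all 9 libraries with terms for group and batch, and p-values were adjusted by Benjamini-Hochberg over the 16030 genes. The SE of an LFC is its absolute size over the root of its F statistic. CPM uses TMM-scaled totals, and marker CPM plain totals. The batch number was used as a replicate block because libraries with the same number deviated together from their group means (correlation 0.334 to 0.707 in 9 pairs, −0.539 to 0.426 in 18 others) and because the labels name it as the batch. Replicates differed by at least 3.66 in chi-square per gene, so none was a repeat of another. The study's methods call them biological replicates of the line. The p-values of the main fit set a difference against the spread left between these samples after the batch term. Scripts were tested on simulated data.

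The members and the lists were chosen with earlier results of these data known. Values by library are given for every member called in any comparison and for HIF1A, GAPDH, LDHA, PDK1, CA9 and VEGFA. Up to 5 DEGs per list of other pathway genes and comparison with control, those with the largest absolute LFC, are named with an LFC or fold, and for batch the 5 members with the smallest adjusted p with batch means. ADM, EGLN1, ENO1, ENO2, HK2, PFKFB3, PFKM, PFKP, SLC2A3 and BNIP3L were described further after their values were seen. Alternatives were RLE scaling, other count filters, no replicate block, DESeq2 1.42.0 with batch, ComBat-Seq (sva 3.50.0) with DESeq2, groups compared alone, thinning to 16168260 counts and leaving out each library, and the fits without batch 4 and the interaction were chosen after seeing the data. Coordinates and exon overlaps are from GENCODE release 44 (GRCh38), in which 62666 of the table's genes were found, and promoter windows from RefSeq.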

Additional observations from a re-analysis of the deposited data

How the results depend on the processing

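Without the replicate block, edgeR called 0 of the 36 members in EC vs. control (4 at an unadjusted p under 0.05), 0 in PG/VG vs. control (1 unadjusted) and 0 in EC vs. PG/VG (0 unadjusted), and 0 in the lists of other glycolysis and hypoxia genes in both comparisons with control. All genes then had 16, 1 and 1 DEGs.

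The 9 members called in EC vs. control were 6 to 10 when single libraries were left out, with 6 called without the control library of batch 3, the control library of batch 4 or the EC library of batch 4. Of all genes, 13.5% were called in the main fit and 7.27% to 13.6% when single libraries were left out. Without the 3 libraries just named, the share was 7.27%, 9.3% and 8.22%. The 4 of PG/VG vs. control were 1 to 6 when single libraries were left out, 2 under RLE scaling, 2 with at least 10 counts in every library, 2 with DESeq2, 7 with ComBat-Seq and DESeq2 and 2 without batch 4. Of all genes, 4.54% were called in the main fit and 1.21% to 6.84% when single libraries were left out. In the other settings the share of all genes was 4.6%, 5.26%, 4.47%, 10.8% and 2.09%, in that order. The 1 of EC vs. PG/VG was 0 to 1 when single libraries were left out, 2 with ComBat-Seq and 0 without batch 4 (10 at an unadjusted p under 0.05). Of all genes, 0.855% were called in the main fit and 0.202% to 1.31% when single libraries were left out. The share was 4.09% with ComBat-Seq and 0.517% without batch 4. The 7 other glycolysis genes of EC vs. control were 2 to 7, and the 2 of PG/VG were 1 to 3 over the fits that left out a library and 5 with ComBat-Seq. The 13 other hypoxia genes of EC vs. control were 10 to 13 over the fits that left out a library. The 5 of PG/VG were 2 to 6 over those fits, 10 with ComBat-Seq and 3 after thinning, which called 4.11% of all genes. The cause was not tested. Of the LFC of the 15 members followed one by one (the 9 DEGs and 6 others), 724 values over the alternatives stayed on their side of the threshold, 69 lost the call and 14 gained it, and no called value changed sign. Depth limits EGLN3 and CA9, which had at most 47 counts per library. It also limits CXCR4 and RORA among the other hypoxia genes, which stayed at or below 1.44 CPM.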
